A study of Rattus norvegicus with 9 samples.

Results

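The genes described here encode neurotrophins, glial cell line-derived neurotrophic factor (GDNF), ciliary neurotrophic factor (CNTF) and receptors for these factors. The 10 named genes were Bdnf, Ntf3, Ngfr, Ntrk2, Ntrk3, Gdnf, Gfra1, Ret, Cntf and Cntfr, and they were found by gene name in a table of 34890 loci. A locus stood under the name of 9 of the 10, and Gfra1 was not analysed here. The samples were lumbar spinal cord (L3-L6), taken from the ipsilateral side, of male, wild-type Sprague Dawley rats, with 3 samples in each of 3 groups. JA rats had a sham operation and received normal saline by mouth. SNI rats had a spared nerve injury, in which 2 of the 3 branches of the sciatic nerve, the tibial and the common peroneal, are tied and cut while the sural branch stays whole, and received the same saline. PLM rats had the same injury and received paeoniflorin at 20.65 mg/mL together with liquiritin. For liquiritin the labels give 3.98, 3.99 and 3.100 mg/mL for PLM samples 1, 2 and 3, whereas the methods describe a single dose for the group. Dosing ran for 21 days in all groups, so each comparison with JA also spans the operation, and no uninjured group received the drugs. RNA of this tissue was sequenced without sorting of cells, and each value is in TPM, the abundance of transcripts scaled for gene length and for the total of the sample.

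Neurotrophins are secreted proteins that keep neurons alive and change the strength of their synapses. Each binds a receptor tyrosine kinase of the Trk family with high affinity, and all of them bind the p75 receptor, which also takes up their uncleaved precursors together with sortilin-like proteins. GDNF signals through the receptor tyrosine kinase Ret once it is held by a co-receptor anchored in the membrane, and CNTF signals through its own anchored receptor together with partners shared by the interleukin 6 family. In the spinal cord, brain-derived neurotrophic factor acting on its receptor TrkB is known for strengthening pain transmission in the dorsal horn after nerve injury. Astrocytes carry a shortened TrkB that lacks the kinase, and a value summed over a whole gene does not separate it from the full-length receptor of neurons.

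Promoter sequence was taken from RefSeq (rat build GRCr8) for the 3 members on which the descriptions of a receptor and of 2 ligands rest: Ret, the one receptor with a promoter entry among those that differed between groups, Cntf, the ligand with the widest spread between samples, and Bdnf. Each line holds the 250 bases before a transcript start. For Ret (chr4:153040557-153040806, minus strand) and Cntf (chr1:219314536-219314785, minus strand) the capitals mark CG dinucleotides. For Bdnf, which has 6 such windows, the window printed is chr3:116637608-116637857 (plus strand) and the capitals mark TCACGTCA, the cAMP and calcium response element for which a neuronal Bdnf promoter is known.
Ret: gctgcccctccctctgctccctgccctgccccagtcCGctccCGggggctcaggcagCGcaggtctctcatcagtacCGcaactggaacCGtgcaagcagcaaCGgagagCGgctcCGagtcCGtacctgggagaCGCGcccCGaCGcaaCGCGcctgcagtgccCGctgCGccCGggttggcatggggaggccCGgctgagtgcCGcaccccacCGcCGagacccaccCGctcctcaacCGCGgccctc
Cntf: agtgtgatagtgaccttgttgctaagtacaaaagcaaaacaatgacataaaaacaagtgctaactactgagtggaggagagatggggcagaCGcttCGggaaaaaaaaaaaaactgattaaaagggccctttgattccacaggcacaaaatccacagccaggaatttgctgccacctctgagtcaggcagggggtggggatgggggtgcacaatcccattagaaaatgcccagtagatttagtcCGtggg
Bdnf: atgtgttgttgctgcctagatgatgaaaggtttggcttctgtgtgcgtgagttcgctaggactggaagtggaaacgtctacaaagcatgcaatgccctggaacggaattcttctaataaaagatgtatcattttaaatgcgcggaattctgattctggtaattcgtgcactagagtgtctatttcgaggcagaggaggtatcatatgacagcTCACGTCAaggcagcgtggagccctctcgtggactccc
The Ret window held 25 CG dinucleotides at a GC content of 72.8%, and 9.74% of 33469 RefSeq windows of the same length held as many. The Cntf window held 3 at a GC content of 46.4%, against a median of 5 over all windows. The TCACGTCA of the Bdnf window began 38 bases before the transcript start (position -38), was the forward match of a search on both strands, and occurred in 0.350% of all windows. These matches describe the letters only and were not tied to any measurement.

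Before the groups were compared, the samples were described by markers of cell types. All 10 neuron markers, 8 oligodendrocyte markers and 6 motor neuron markers of the lists used were above 0 in every sample, as spinal cord tissue has. Markers of Schwann cells, which wrap peripheral and not central axons, stood apart in 1 sample of each group. Their summed level was 1160, 630 and 8443 TPM in JA samples 1 to 3, 1116, 5061 and 2079 TPM in SNI samples 1 to 3, and 684, 1409 and 3842 TPM in PLM samples 1 to 3. The share of TPM in 13 mitochondrial protein genes was 25.3% to 32.8% in JA, 23.7% to 26.1% in SNI and 31.3% to 32.8% in PLM, and this lowers or raises every other gene of a sample together. Values were therefore compared as deposited and again after each sample was centred on its own median locus. In unsorted tissue, fewer cells of a type and less RNA per cell cannot be told apart.

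The differences that passed the test were all in receptor genes. Of the ligand genes, Bdnf, near 1 TPM, and the variable Cntf were tested, while Ntf3 and Gdnf were too low to be tested. In PLM compared with SNI, the genes for TrkB (Ntrk2), the CNTF receptor (Cntfr), Ret and TrkC (Ntrk3) were lower, at 47.3%, 54.8%, 56.9% and 63.6% of the SNI mean. In all 4, every PLM sample lay below every SNI sample, which was so in 41.9% of all loci, and 13.6% of loci were called lower. After centring on the median locus, 1 of the 4, Ntrk2, was still called, against 0.685% of loci called lower. This centred call was lost without any 1 sample other than PLM sample 1. None of the members tested passed the test in SNI compared with JA or in PLM compared with JA. The plot of levels by sample shows all 9 genes.

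**Figure D1:**
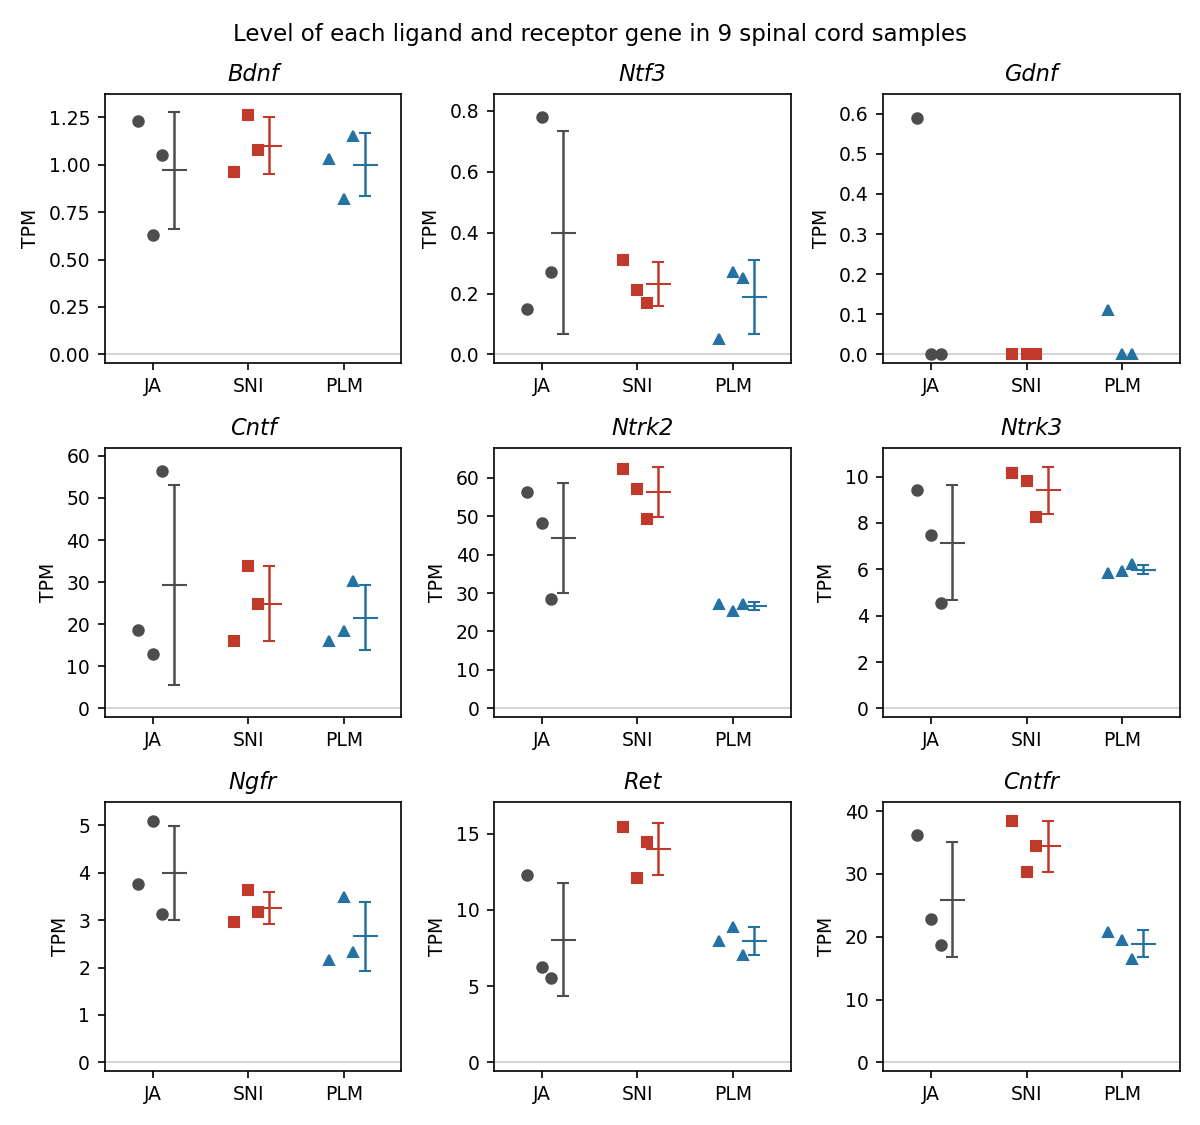
TPM of 4 ligand genes (Bdnf, Ntf3, Gdnf, Cntf) and 5 receptor genes (Ntrk2, Ntrk3, Ngfr, Ret, Cntfr) in the 9 samples, with replicates 1 to 3 from left to right within JA, SNI and PLM, and with the mean and SD of each group beside the points except for Gdnf. The PLM points of Ntrk2, Ntrk3, Ret and Cntfr lie below all SNI points of the same gene, and the 4 ligands overlap between PLM and SNI.

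Ntrk2 (ENSRNOG00000018839) encodes TrkB, the high-affinity receptor of brain-derived neurotrophic factor. It was measured at 56.2, 48.3 and 28.4 TPM in JA samples 1 to 3, at 62.3, 57.1 and 49.4 TPM in SNI, and at 27.2, 25.4 and 27.2 TPM in PLM. The PLM samples were the lowest of all 9, JA sample 3 lay just above them, JA sample 1 lay within the SNI range and JA sample 2 just below it. The group means (± SD, n = 3 each) were 44.3 ± 14.3 TPM for JA, 56.2 ± 6.50 TPM for SNI and 26.6 ± 1.02 TPM for PLM. PLM was lower than SNI by a log2 fold change of -1.05 (SE 0.09, 95% interval -1.28 to -0.82, adjusted p = 0.00526, limma with Benjamini-Hochberg adjustment over all loci tested, on log2(TPM + 1)). RefSeq lists 14 transcripts for Ntrk2 and 7 long noncoding genes that overlap it, and the deposited value does not separate them.

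Ntrk3 (ENSRNOG00000018674) encodes TrkC, the receptor of neurotrophin-3, and stood at a lower level with the same order of groups. Its values were 9.44, 7.47 and 4.54 TPM in JA, 10.2, 9.81 and 8.25 TPM in SNI, and 5.84, 5.91 and 6.21 TPM in PLM. The PLM values were close together and lay between JA samples 2 and 3. The log2 fold change of PLM against SNI was -0.57 (SE 0.10, adjusted p = 0.0221 with limma). Means (± SD, n = 3 each) were 7.15 ± 2.47 TPM for JA, 9.41 ± 1.02 TPM for SNI and 5.99 ± 0.197 TPM for PLM.

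Ngfr (ENSRNOG00000005392) encodes p75, the receptor shared by all neurotrophins and their precursors. It was at 3.77, 5.08 and 3.12 TPM in JA, 2.96, 3.63 and 3.17 TPM in SNI, and 2.16, 3.49 and 2.33 TPM in PLM. All 3 groups overlapped as deposited, and p75 was the receptor with the lowest level. On values centred for SNI and JA, every SNI sample (-1.54 to -1.27) lay below every JA sample (-1.25 to -0.75). The log2 fold change of SNI against JA there was -0.34 (adjusted p = 0.889 with limma). The share of loci with this separation was not counted. The log2 fold change of PLM against SNI was -0.23 (95% interval -0.63 to 0.16, adjusted p = 0.332 with limma), and on centred values it was 0.02 (95% interval -0.37 to 0.40, adjusted p = 0.971 with limma).

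Ret (ENSRNOG00000014751) encodes the signalling receptor of the GDNF family, which in the cord is known in motor neurons. Its values were 12.3, 6.28 and 5.52 TPM in JA, 15.5, 12.1 and 14.4 TPM in SNI, and 7.95, 8.90 and 7.02 TPM in PLM. JA sample 1 stood with the SNI samples, while JA samples 2 and 3 lay below all PLM samples. The log2 fold change of PLM against SNI was -0.74 (SE 0.12, adjusted p = 0.0206 with limma). Means (± SD, n = 3 each) were 8.03 ± 3.71 TPM for JA, 13.99 ± 1.73 TPM for SNI and 7.96 ± 0.940 TPM for PLM, so JA and PLM means differed by less than the spread within JA.

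Cntfr (ENSRNOG00000047307) encodes the ligand-binding receptor of CNTF, which is found on neurons, motor neurons among them. It was at 36.2, 22.8 and 18.7 TPM in JA, 38.4, 30.4 and 34.4 TPM in SNI, and 20.7, 19.4 and 16.5 TPM in PLM. The PLM samples overlapped with JA sample 3 alone, and SNI overlapped with JA sample 1 alone. The log2 fold change of PLM against SNI was -0.83 (SE 0.12, 95% interval -1.12 to -0.55, adjusted p = 0.0147 with limma). Means (± SD, n = 3 each) were 25.9 ± 9.15 TPM for JA, 34.4 ± 4.04 TPM for SNI and 18.9 ± 2.15 TPM for PLM.

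The ligand genes were low, with the exception of Cntf. Bdnf (ENSRNOG00000047466), which encodes brain-derived neurotrophic factor and whose promoter window is printed above, was at 1.23, 0.63 and 1.05 TPM in JA, 0.96, 1.26 and 1.08 TPM in SNI, and 1.03, 0.82 and 1.15 TPM in PLM. The 3 groups overlapped throughout. Its log2 fold change of PLM against SNI was -0.07 (95% interval -0.46 to 0.32, adjusted p = 0.762 with limma) and turned to 0.18 on centred values (95% interval -0.21 to 0.56, adjusted p = 0.629 with limma).

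Ntf3 (ENSRNOG00000019716), the gene of neurotrophin-3, was at 0.15, 0.78 and 0.27 TPM in JA, 0.31, 0.21 and 0.17 TPM in SNI, and 0.05, 0.27 and 0.25 TPM in PLM. Gdnf (ENSRNOG00000012819) was listed at 0 in 7 of the 9 samples, at 0.59 TPM in JA sample 1 and at 0.11 TPM in PLM sample 1. Both were under the minimum mean of 1 TPM and were not tested.

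Cntf (ENSRNOG00000012460) encodes ciliary neurotrophic factor, which Schwann cells are known to hold in quantity in peripheral nerve. It was the most variable of the members above 1 TPM, at 18.6, 12.9 and 56.5 TPM in JA, 16.1, 33.8 and 24.8 TPM in SNI, and 15.9, 18.3 and 30.4 TPM in PLM. The highest value of each group was in JA sample 3, SNI sample 2 and PLM sample 3, the same samples that had the highest Schwann cell marker sums. Summed markers of meninges and fibroblasts were also highest of their group there, at 360, 239 and 132 TPM. They were 62.55 to 135 TPM in the other 6, and the part of either marker set in Cntf was not tested. Prx, which encodes the Schwann cell myelin protein periaxin, was highest in these samples too, at 125, 73.7 and 54.7 TPM against 2.37 to 27.4 TPM in the other 6. Zfp91, the RefSeq neighbour nearest to Cntf, was between 41.9 and 54.7 TPM in all 9 samples. The log2 fold change of Cntf in PLM against SNI was -0.20 (95% interval -0.97 to 0.58, adjusted p = 0.672 with limma). It turned to 0.05 on centred values and to 0.05 without SNI sample 2, and was -0.47 without SNI sample 1.

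**Figure D2:**
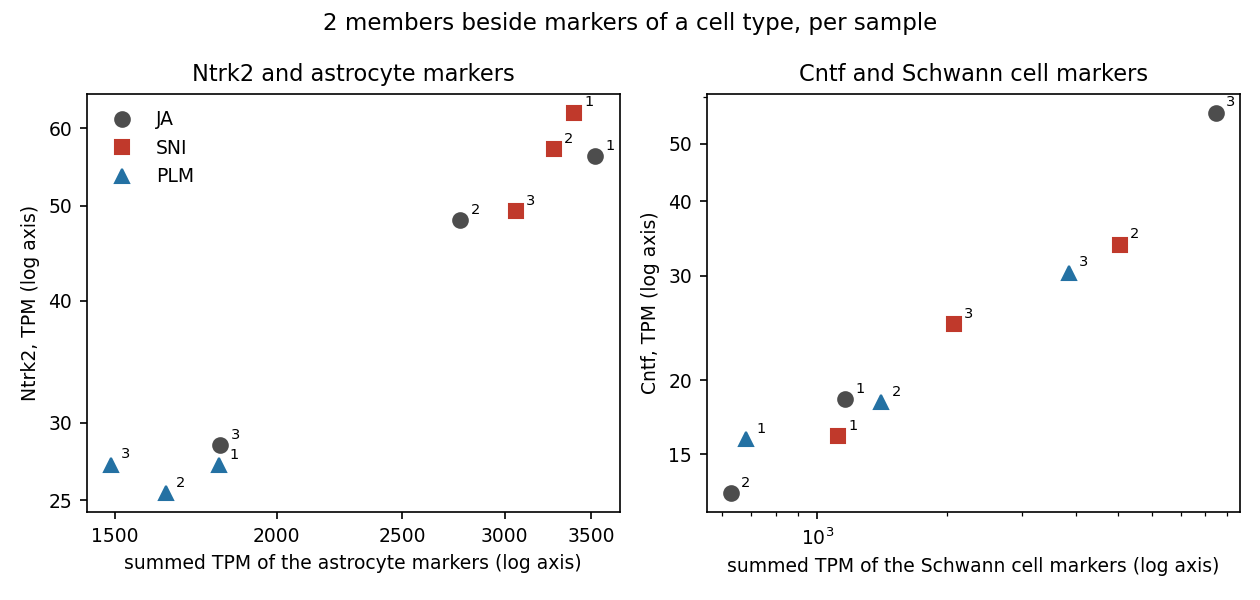
Left, Ntrk2 in TPM against the summed TPM of 10 astrocyte markers; right, Cntf in TPM against the summed TPM of 8 Schwann cell markers; all axes are log axes, each point is 1 sample and the digit is its replicate number. The 3 PLM samples and JA sample 3 have the lowest Ntrk2 and the lowest astrocyte sums, and JA sample 3, SNI sample 2 and PLM sample 3 have the highest Cntf and the highest Schwann cell sums.

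The comparison of PLM with SNI asks what the drug pair changed in the injured cord. Of the 7 members tested, 4 were lower at an adjusted p under 0.05 and none was higher. Of all 15474 loci tested, 13.6% were lower by the same rule. Ntrk2 was the one member that passed the thresholds that the study set for its own gene list, an unadjusted p under 0.05 with a log2 fold change beyond 1 in size, which 1.42% of loci passed in the lower direction. All PLM samples lay below all SNI samples in 4 of the 7 members and in 41.9% of loci. The median log2 fold change was -0.57 over the 7 members and -0.21 over all loci tested.

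On centred values the receptors lay closer to 0. Ntrk2 was lower by -0.80 (95% interval -1.02 to -0.58, adjusted p = 0.0274 with limma) and was the 1 member called, against 0.685% of loci called lower. Cntfr (-0.59, adjusted p = 0.113), Ret (-0.49, adjusted p = 0.142) and Ntrk3 (-0.32, adjusted p = 0.145) did not pass after adjustment with limma. All 4 had an unadjusted p under 0.05, as 6.89% of loci had in the lower direction, and no overlap between the groups, as 9.73% of loci had. The median over the 7 members was -0.32 on this scale and 0.04 over all loci. When the values were rescaled without the mitochondrial genes, Ntrk2 (adjusted p = 0.0158) and Cntfr (adjusted p = 0.0435) passed with limma, while Ret (adjusted p = 0.0610) and Ntrk3 (adjusted p = 0.0893) did not. On that scale 267 of the 16055 loci tested were called lower.

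**Figure D3:**
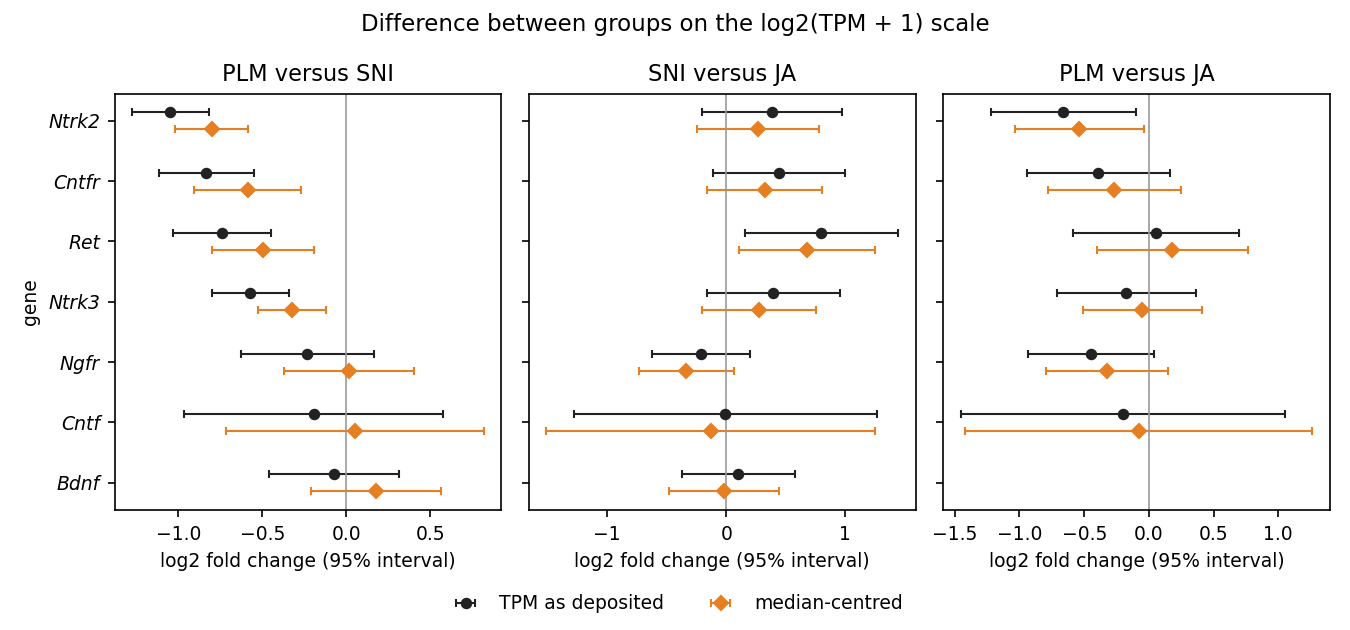
Log2 fold change with 95% interval of the 7 members tested, for PLM versus SNI, SNI versus JA and PLM versus JA, on deposited TPM (black circles) and on median-centred values (orange diamonds); Bdnf has no point in PLM versus JA because it was under the minimum level there. In PLM versus SNI the intervals of Ntrk2, Cntfr, Ret and Ntrk3 lie below 0 on both scales, and Ntrk2 is at -1.05 as deposited and -0.80 centred.

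With deposited values, Ntrk2 stayed under an adjusted p of 0.05 when any single sample was left out (0.00739 to 0.0301, limma). Cntfr did not without PLM sample 2 (0.0589) or SNI sample 1 (0.0544). Ret did not without any 1 PLM sample, SNI sample 1 or SNI sample 3 (0.0507 to 0.0780). Ntrk3 did not without any 1 PLM sample or SNI sample 1 (0.0518 to 0.0843, all limma). The fits that lost a call had 275 to 700 loci called in all, against 2148 with every sample. Log2 fold changes there were -0.86 and -0.75 for Cntfr, -0.82 to -0.66 for Ret and -0.59 to -0.52 for Ntrk3. The centred call of Ntrk2 was lost without any 1 sample other than PLM sample 1 (adjusted p from 0.0517 to 0.126, limma), in fits that called 0 to 22 loci in all against 126 with every sample; its log2 fold change there was -0.87 to -0.74. Without both SNI sample 2 and PLM sample 3, the samples of high Schwann cell markers, the log2 fold changes were -1.05 for Ntrk2, -0.83 for Cntfr, -0.76 for Ret and -0.56 for Ntrk3, with adjusted p between 0.0670 and 0.0894 from limma on 2 samples a group. That fit called 12 loci in all.

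As deposited, JA sample 3 and the 3 PLM samples were the 4 lowest in Ntrk2, Ntrk3 and Cntfr and in the summed astrocyte markers. The same samples had the lowest medians of log2(TPM + 1) over loci, at 3.18 to 3.30 against 3.37 to 3.53 in the others. The share of loci with this order was not counted. On centred values of PLM and JA, Ntrk2 and Ntrk3 kept this order. Cntfr did not, with JA sample 2 (1.18) below PLM sample 1 (1.23). The summed level of the 10 astrocyte markers, all of them above 0 in every sample, was 1808 to 3527 TPM in JA, 3060 to 3397 TPM in SNI and 1489 to 1805 TPM in PLM. In PLM compared with SNI, 9 of the 10 were lower at an adjusted p under 0.05 with limma, with a median log2 fold change of -1.40 (13.6% of all loci were lower), and 6 of 10 were on centred values, with a median of -1.15 (0.685% of loci). None of the 10 neuron markers was called, with a median of -0.22 as deposited and 0.03 centred. The part of the astrocyte markers in the lower Ntrk2, Ntrk3 and Cntfr was not tested. The 6 motor neuron markers summed to 227, 107 and 72.9 TPM in JA, 243, 185 and 288 TPM in SNI, and 190, 212 and 156 TPM in PLM, and of the 5 tested 1 was lower in PLM than in SNI, against 13.6% of all loci, with a median of -0.49, and none was called on centred values, with a median of -0.24. JA samples 2 and 3, the lowest in these markers, were also the lowest of all 9 in Ret, and the part of the markers in the levels of Ret and Cntfr was not tested.

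The comparison of SNI with JA asks what the injury changed. None of the 7 members tested passed at an adjusted p under 0.05 with limma, on deposited or on centred values, and neither did any locus in the higher direction (0% and 0%). Ret was the 1 member with an unadjusted p under 0.05 in limma (0.0222, and 0.614 after adjustment), as were 6.11% of loci in the higher direction. Its log2 fold change was 0.80 (95% interval 0.15 to 1.44), and JA sample 1 overlapped with SNI. No member had every SNI sample above every JA sample, a separation that 12.1% of loci had. In the lower direction, every SNI sample of Ngfr lay below every JA sample on centred values, as given above. The fold changes of the other members were 0.44 for Cntfr, 0.40 for Ntrk3, 0.39 for Ntrk2, 0.10 for Bdnf, -0.01 for Cntf and -0.21 for Ngfr. Single JA samples moved these values. Ret was at 1.11 without JA sample 1 (unadjusted p = 0.000249, adjusted p = 0.197, limma), and Ntrk2 was at 0.10 without JA sample 3 (adjusted p = 0.880, limma), the JA sample with the lowest astrocyte markers and the highest Schwann cell markers. Cntfr was at 0.70 without JA sample 1 and 0.24 without JA sample 3, and Ntrk3 at 0.60 and 0.14. Ngfr was at -0.06 without JA sample 2 and -0.34 without JA sample 3. Without JA sample 1, Ntrk2, Ntrk3, Ret and Cntfr had an unadjusted p under 0.05 in limma, and none was called after adjustment (0.197 to 0.279).

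The comparison of PLM with JA sets treated, injured rats beside sham-operated rats without treatment. None of the 6 members tested passed at an adjusted p under 0.05 with limma, and 0.013% of loci were called lower, on deposited and on centred values alike. Ntrk2 was the 1 member with an unadjusted p under 0.05 in limma (0.0272, and 0.388 after adjustment, log2 fold change -0.66), as 10.5% of loci were in the lower direction. It was also the 1 member whose PLM samples all lay below all JA samples, as in 15.7% of loci, by a margin of 27.2 against 28.4 TPM. On centred values JA sample 3 fell among the PLM samples. Without JA sample 3 the log2 fold change of Ntrk2 was -0.95 (adjusted p = 0.0552, limma). Ngfr was at -0.45, Cntfr at -0.39, Cntf at -0.20, Ntrk3 at -0.17 and Ret at 0.06. Cntfr was at -0.13 without JA sample 1 and -0.59 without JA sample 3, and Ntrk3 was at 0.03 and -0.43. Without JA sample 3, Ntrk2, Ntrk3, Ngfr and Cntfr had an unadjusted p under 0.05 in limma, and none was called after adjustment (0.0552 to 0.229). The 3 comparisons share samples, so the lower receptors in PLM against SNI and the positive values in SNI against JA rest in part on the same SNI samples.

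Because a ratio of 2 genes within a sample does not depend on how the sample is scaled, the 5 receptors were also set against each other in 10 pairs. The ratio of Ntrk2 to Ntrk3 was 5.95 to 6.47 in JA and 5.82 to 6.13 in SNI, and 4.30 to 4.65 in PLM. In PLM it was thus below every sample of both other groups, a difference of -0.43 from SNI on the log2 scale, while JA and SNI overlapped through JA sample 1. The ratio of Ntrk2 to Ngfr was 9.12 to 14.9 in JA, 15.6 to 21.04 in SNI and 7.28 to 12.6 in PLM, so SNI lay above both other groups. The other 8 pairs overlapped between PLM and SNI. With 3 samples against 3, an exact permutation test (two-sided) cannot give a p below 0.1, which both pairs reached, and the value adjusted over the 10 pairs was 0.4. Ret and Cntfr kept nearly the same proportion in SNI and PLM, with Cntfr at 2.39 to 2.51 times Ret in SNI, 2.18 to 2.603 times in PLM and 2.94 to 3.64 times in JA.

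**Figure D4:**
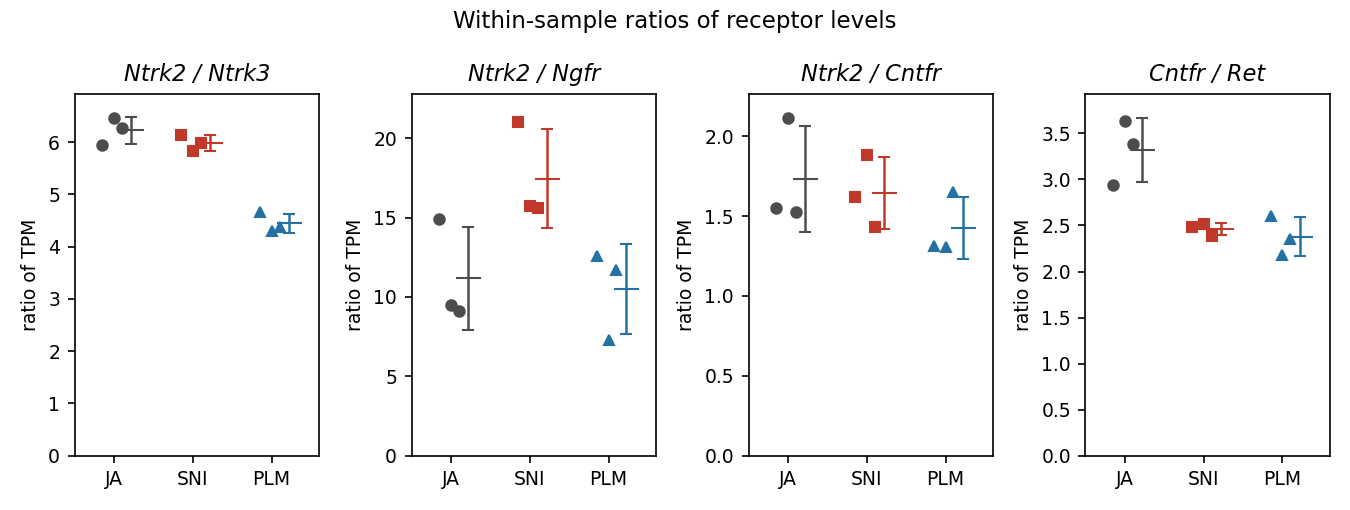
Ratio of TPM within each sample for Ntrk2 to Ntrk3, Ntrk2 to Ngfr, Ntrk2 to Cntfr and Cntfr to Ret, with replicates 1 to 3 from left to right in each group and the group mean and SD beside the points. The Ntrk2 to Ntrk3 ratio of the PLM samples (4.30 to 4.65) lies below the 6 others (5.82 to 6.47), and Ntrk2 to Cntfr overlaps in all groups.

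Added over each sample, the 5 receptor genes gave 118, 89.97 and 60.3 TPM in JA, 129, 113 and 110 TPM in SNI, and 63.8, 63.1 and 59.2 TPM in PLM. The 4 ligand genes gave 20.5, 14.3 and 57.8 TPM in JA, 17.4, 35.3 and 26.1 TPM in SNI, and 17.1, 19.4 and 31.8 TPM in PLM, nearly all of it Cntf. The receptor sums of PLM lay near that of JA sample 3, while the ligand sums of the 3 groups overlapped.

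The loci whose pattern over the 9 samples was most like that of the 2 most variable members were found by the smallest root-mean-square difference of mean-subtracted log2(TPM + 1), among 13952 loci. For Ntrk2 they were Sorcs2 (0.05), Sdc3 (0.05) and Ncan (0.07). Sorcs2 encodes a sortilin-like receptor of neurotrophin precursors, Sdc3 the heparan sulphate proteoglycan syndecan-3, and Ncan the matrix proteoglycan neurocan. For Cntf they were Fxyd6 (0.12), a regulator of the sodium pump, Scara5 (0.17), a ferritin receptor, and Emp2 (0.17), a membrane protein related to the peripheral myelin protein PMP22. Fxyd6 was at 67.8, 49.2 and 43.5 TPM in JA sample 3, SNI sample 2 and PLM sample 3, and at 20.1 to 30.3 TPM in the other 6.

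Other genes of these pathways were described in 6 lists, of which none had a gene called in the higher direction in PLM against SNI and none had a gene called in the comparisons with JA. Among other neurotrophin ligands, receptors and sortilins, 2 of 6 tested were lower in PLM than in SNI by adjusted p with limma (13.6% of all loci were), with a median log2 fold change of -0.31. On centred values 1 of the 6 was called, against 0.685% of loci, and the median was -0.06. The 2 lower as deposited were the precursor receptors Sorcs2, at 5.45 to 6.71 TPM in SNI and 2.39 to 2.66 TPM in PLM (-1.01, adjusted p = 0.00674), and Sort1, which encodes sortilin (-0.35, adjusted p = 0.0420). Ntf4, the gene of neurotrophin-4, was under 1 TPM and not tested. Among other GDNF family ligands and receptors, 2 of 5 were lower, with a median of -0.33, and on centred values 1 of the 5 was called (0.685% of loci were), with a median of -0.09. The 2 lower as deposited were Sdc3, which encodes a proteoglycan that binds GDNF, at 55.5 to 70.5 TPM in SNI and 29.2 to 31.4 TPM in PLM (-1.03, adjusted p = 0.00540), and Ncam1, the neural cell adhesion molecule, an alternative GDNF receptor (-0.39, adjusted p = 0.0261).

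Among partners of the CNTF receptor and the JAK-STAT proteins below it, 4 of 10 were lower, against 13.6% of all loci, with a median of -0.37. On centred values 1 of the 10 was called, against 0.685% of loci, and the median was -0.12. Among them was the transcription factor Stat3, at 22.8 to 24.2 TPM in SNI and 14.9 to 18.4 TPM in PLM (-0.52, adjusted p = 0.0245, limma). The genes of the related cytokines Il6, Il11, Lif, Osm and Clcf1 were under 1 TPM. Of the genes named from these 3 lists, Sorcs2 (-0.77, adjusted p = 0.0299) and Sdc3 (-0.78, adjusted p = 0.0290) were also called on centred values with limma, while Sort1 (-0.10), Ncam1 (-0.14) and Stat3 (-0.27) were not.

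Genes downstream of the receptors and of precursor processing were described in the same way. Of 39 adaptors and kinases of Trk and Ret signalling, 9 were lower, with a median of -0.28; among them were the Trk scaffold Kidins220 (-0.42, adjusted p = 0.0256) and the kinase Akt2 (-0.38, adjusted p = 0.0344). Of 17 partners of p75, 3 were lower, with a median of -0.23, among them Arhgdia (-0.32, adjusted p = 0.0275) and Lingo1, a p75 co-receptor (-0.56, adjusted p = 0.0339). Of 10 genes of precursor processing and release, 1 was lower, with a median of -0.31: Cpe, carboxypeptidase E, a sorting receptor for the precursor of brain-derived neurotrophic factor (-0.53, adjusted p = 0.00759, limma). The share called was 9 of 39, 3 of 17 and 1 of 10 against 13.6% of all loci, and nothing particular to these lists is read from it. On centred values no gene of these 3 lists was called, and the medians were -0.03, 0.01 and -0.07.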

How the data were processed

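RNA-seq of 9 rat lumbar spinal cord samples, 3 in each of JA, SNI and PLM, was used. The authors deposited TPM values, rounded to 2 decimals, with totals of 1000000 per sample; the unit was read from the values. Per the labels, fastp 0.19.5, CASAVA and StringTie were used, and the submitters' processing notes name the build GRCh38.p13, a human assembly, although the identifiers are rat Ensembl. TPM keeps no depth, so the depth per sample and its counting error are unknown and no count test was run.

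Groups were compared in pairs of 3 samples with limma 3.58.1 (R 4.3.3; trended empirical Bayes) on log2(TPM + 1), which understates changes of low genes, keeping loci that averaged 1 TPM or more in those 6 samples: 15474 loci in PLM versus SNI, 15557 in SNI versus JA and 15349 in PLM versus JA. P-values were adjusted by Benjamini-Hochberg over all loci tested, and a call is an adjusted p under 0.05. Centred values had each sample's median over the tested loci subtracted. The code was tested on simulated data. The labels call the samples biological replicates. Members and lists were chosen with earlier results of these data known. Named are all members with a row, up to 3 called genes of each pathway list by smallest p (some of these are not reported here), and the 3 loci most like each of the 2 most variable members. Prx, Zfp91 and genes described as not tested were named after their values were seen. Alternatives were another pseudocount, filters, scalings, a fit to all 9 samples, a replicate block and leaving out samples.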

Additional observations from a re-analysis of the deposited data

How the results depend on the processing

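In PLM versus SNI, 4 members were called as deposited, 1 on median-centred values, 2 after rescaling without mitochondrial genes, 1 in a fit to all 9 samples, 1 with the replicate block and 0 without both SNI sample 2 and PLM sample 3, an alternative added after seeing the data. Calls over all loci fell too, from 2148 as deposited to 126 centred and 283 after rescaling. They were 486 in the fit to all 9 samples and 12 without both SNI sample 2 and PLM sample 3. With single samples left out, 1 to 4 members were called. The fewest were without PLM sample 2 or SNI sample 1, where 275 and 293 loci were called in all. A pseudocount of 0.1, no filter and a stricter filter each gave 4. On centred values 1 member was called, 0 with the replicate block and 0 to 1 with single samples left out, the 1 without PLM sample 1. The numbers of replicates did not pair the samples (correlations of same-numbered deviations -0.02 to 0.03 in PLM and SNI), so a call lost under the block is not read as a weaker difference; over all loci the block gave 152 calls against 2148. No member was called in SNI versus JA or PLM versus JA under any setting run. Ntrk2, Ntrk3, Ret and Cntfr were lower in PLM than in SNI under every setting run. As deposited, every PLM sample of these genes lay below every SNI sample, as in 41.9% of loci. There, no filter, pseudocount, block or left-out sample could turn the sign, so this is not read as a test of stability. Signs turned for members that were not called. In PLM versus SNI, Bdnf was 0.18 centred and 0.0044 without mitochondrial genes, Ngfr 0.016 centred, and Cntf 0.052 centred and -0.47 to 0.048 with single samples left out (above 0 without SNI sample 2). In SNI versus JA, Bdnf was -0.019 centred and -0.028 (without JA sample 2) to 0.15 with single samples left out, and Cntf -0.43 to 0.59 (0.26 without SNI sample 1, 0.59 without JA sample 3). In PLM versus JA, Ntrk3 was -0.43 to 0.028 (above 0 without JA sample 1), Ret -0.14 to 0.37 (-0.02, -0.06 and -0.14 without PLM sample 2, JA sample 2 and JA sample 3), and Cntf -0.63 to 0.40 (above 0 without JA sample 3). The causes were not tested. A count test (DESeq2 or edgeR) was not run, since the values are TPM. Depth is unknown, so genes near or under 1 TPM (Bdnf, Ntf3, Gdnf) carry a counting error that could not be given.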
